A study of Drosophila melanogaster with 3 samples.

Results

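The genes described here build the corneal lens of the fruit fly eye or handle the carotenoid that becomes the chromophore of its visual pigment. They are the 8 genes Crys, retinin, ninaD, santa-maria, ninaB, pinta, ninaG and ninaA, found by their CG numbers on the arrays, where each has 1 probe among 11744. RNA of adult Drosophila melanogaster males homozygous for a kep1 mutation was set against RNA of w1118 males, the wild type of the study. Both groups were aged 3 to 4 days, and according to the design text the RNA came from heads. The kep1 gene encodes a protein that binds RNA, and the study followed its loss in cell division and behaviour. Each of 3 spotted 2-colour cDNA arrays carried 1 mutant RNA in Cy5 and 1 wild-type RNA in Cy3, so each gene has 3 log2 ratios of mutant over wild type. This direction rests on the labels, since the scanner tables name channels and not dyes. No dyes were swapped and only 1 mutant strain was compared with 1 control strain. A dye effect of a probe, the kep1 genotype and any other difference between the strains therefore cannot be told apart. The kep1 allele and the number of flies behind each RNA are not given in the sources used here. In RNA of whole tissue, fewer cells of a type and less RNA per cell cannot be told apart either.

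Flies cannot make the chromophore of their visual pigments and obtain it from carotenoids in food. The scavenger receptors NinaD and Santa-maria take carotenoids into cells, the oxygenase NinaB cleaves and isomerizes them to retinal, and the retinal is hydroxylated, a step whose product NinaG, an oxidoreductase, brings to its final form. Pinta is a retinoid-binding protein of the retinal pigment cells. The opsin that receives the chromophore is folded and carried to the light-sensing membrane with the help of NinaA, a cyclophilin. Crys, or drosocrystallin, and retinin are secreted proteins of the cornea, the transparent cuticle that serves as the lens of each ommatidium.

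Levels are foreground intensities in scanner units, which hold no meaning between probes. Ratios are log2 values of mutant over wild type after background correction and loess normalization, given as mean ± SD with n = 3 arrays. A gene was called past the threshold at a limma adjusted p under 0.05 over all 11733 tested probes. The kep1 probe, listed as qkr58E-3, stood at -1.69 ± 0.40, with ratios of -1.59, -1.35 and -2.13, and did not pass (limma adjusted p = 0.0726), although all of its wild-type intensities (852, 865 and 1343) exceeded its mutant intensities (253.6, 240.3 and 228). Median probe intensities lay between 226.9 and 306.8 in the 6 channels, and the 95th percentile of blank spots between 112.4 and 446.03. All 8 genes exceeded their local background in both channels on every array. Of their 48 channel values, 38 also lay above that blank-spot percentile. The other 10 were on array 1 or 3, and all of them except a mutant value of retinin were in the wild-type channel. Ratios on array 2 correlated less with the other arrays across probes (Pearson's r = 0.41 and 0.475) than arrays 1 and 3 did with each other (0.691).

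None of the 8 genes passed the threshold in limma, which 0.145% of all tested probes did. Of all tested probes 0.0682% passed as higher and 0.0767% as lower in the mutant. That is 8 and 9 probes, against 25 and 45 with median centring only and 121 and 302 with the deposited log2 values. At an unadjusted p under 0.05, 3 of the 8 were higher and 0 lower, against 6.24% and 9.25% of all tested probes. These 3, Crys, ninaA and ninaG, were also the genes above 0 on all 3 arrays, as were 18.4% of all tested probes. None was below 0 on all arrays (20.5% of all tested probes), so 3 of 8 kept 1 sign against 39% of all tested probes, and the other 5 had a mixed sign. The mean ratios ran from 0.96 for Crys to -0.33 for ninaB with a median of 0.23, where the median of all tested probes was -0.0027.

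**Figure D1:**
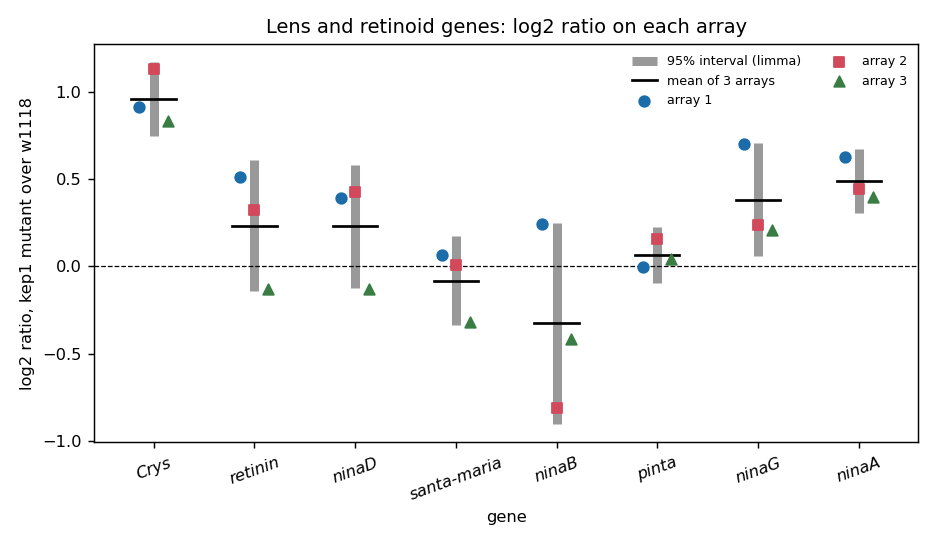
Log2 ratio of kep1 mutant over w1118 for each of the 8 genes, with 1 symbol per array, a black line for the mean and a grey bar for the 95% interval from limma. Crys, ninaA and ninaG lie above 0 on all 3 arrays, the interval of Crys (0.75 to 1.17) lies above that of ninaA (0.31 to 0.67), and ninaB has the widest interval.

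The lens protein gene Crys had the largest ratio of the 8. On arrays 1, 2 and 3 the wild-type intensities were 915, 569 and 403, and the mutant intensities were 1847, 1128 and 759.5. The mutant channel was brighter on every array, by 2.02-fold, 1.98-fold and 1.89-fold before any normalization, although the 2 ranges overlap across arrays. After normalization the log2 ratios were 0.91, 1.13 and 0.83, a mean of 0.96 ± 0.16 or 1.94-fold, with a 95% interval of 1.68-fold to 2.25-fold. The adjusted p was 0.0620 in limma, just outside the threshold. Only 0.256% of tested probes had a higher mean ratio. The 6 single spots ran from 0.67 to 1.19, so both duplicates were above 0 on each array. On array 3 the wild-type value, 403, did not reach the blank-spot percentile, 446.03. The layout of array 1 lists the probe under Cry, an older symbol of Crys. It is not the cryptochrome gene cry.

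The call for Crys depended on the processing, while its size did not. Its mean ratio stayed between 0.86 and 1.08 over 15 alternatives, and 9 of them put it past the threshold, with limma adjusted p-values from 0.0042 to 0.304. It passed without background subtraction (0.0087), with plain subtraction (0.0102), with median centring only (0.0286), with an intensity trend in the variances (0.0099) and with the deposited log2 values (0.0042). Leaving out array 2 also put it past the threshold (0.0448), while leaving out array 1 or 3 did not (0.304 and 0.181). Nor did it pass with print-tip loess (0.0551), scale normalization between arrays (0.102), no filter (0.0621) or the second spots only (0.0597).

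retinin, the gene of the other corneal protein among the 8, was not brighter in the mutant on every array. Wild-type intensities of 680.3, 339 and 335 stood against mutant intensities of 1063, 376 and 295. The mutant value was higher on arrays 1 and 2 and lower on array 3, and the ranges overlap, with log2 ratios of 0.51, 0.32 and -0.13. The mean was 0.23 ± 0.33, with a 95% interval from -0.14 to 0.61 (limma adjusted p = 0.528). Without array 1 the mean of retinin was 0.095, and without array 3 it was 0.42. On array 3 both channels were below the blank-spot percentile, and its duplicate spots differed in sign, at 0.06 and -0.32. Within an array, Crys exceeded retinin by 0.40, 0.81 and 0.96 on the log2 ratio scale, a mean of 0.72 ± 0.29. An exact sign-flip test on 3 arrays cannot give a two-sided p under 0.25, which is the value here.

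The RefSeq table also lists CG13057, the number of retinin, as an older name of the gene next to it, CG33060, which has a probe of its own. This neighbour had log2 ratios of 0.30, 0.19 and 0.36, a mean of 0.28 ± 0.08 (limma adjusted p = 0.146). Unlike retinin it was above 0 on all 3 arrays, with a smaller spread. The nearest measured gene on the other side, CG4998, stood at -0.03 ± 0.05. The nearest measured genes around Crys were near 0, with the odorant receptor gene Or33a at 0.02 ± 0.03 and CG6686 at -0.03 ± 0.15. Over the 16 nearest measured neighbours of the 8 genes, none passed the threshold and the median was 0.0052. On all arrays 5 neighbours were above 0 and 1 was below 0, as were 18.4% and 20.5% of all tested probes. Among them, and chosen after their values were seen, Lsp1beta beside ninaA stood at 0.43 ± 0.09 (limma adjusted p = 0.0953) and f-cup beside ninaB at -0.51 ± 0.03 (limma adjusted p = 0.0726), each with the sign of its neighbour among the 8. Other neighbours had the opposite sign, as CG6686 had to Crys and CG4998 to retinin.

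**Figure D2:**
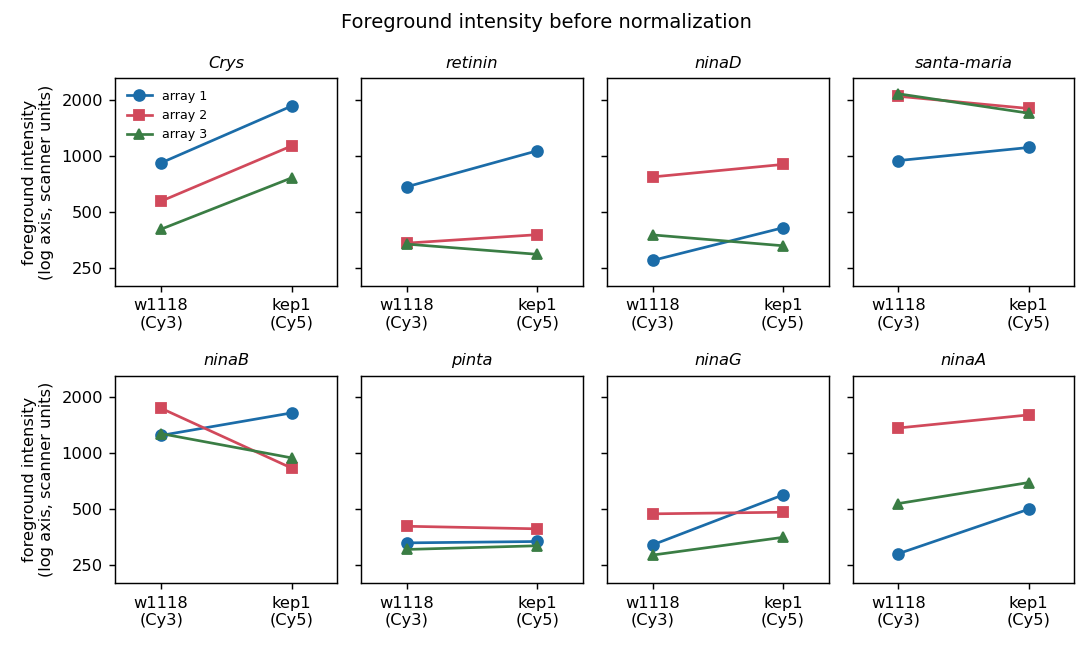
Foreground intensity before normalization (log axis, scanner units) of the 8 genes in the w1118 channel and the kep1 channel, with a line for each array. The 3 lines of Crys slope upward side by side, those of pinta are nearly flat between 304 and 406, and those of ninaB cross.

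The 2 carotenoid receptors did not differ from 0 beyond their spread. ninaD, the receptor that gathers carotenoids in the gut, had wild-type intensities of 273, 769 and 375 against 409.8, 897 and 328 in mutant RNA. Its log2 ratios were 0.39, 0.42 and -0.13, a mean of 0.23 ± 0.31 with a 95% interval from -0.12 to 0.58 (limma adjusted p = 0.509). Leaving out array 1, 2 or 3 gave ninaD a mean of 0.15, 0.13 or 0.41. Its wild-type values on arrays 1 and 3 were below the blank-spot percentile. As for retinin, the value below 0 came from array 3, where the duplicate spots stood at 0.15 and -0.40. The medians of 7 measured gut markers on the same arrays were -1.87, -0.65 and -2.14, and their part in the ninaD ratio was not tested. santa-maria, which acts in carotenoid uptake outside the gut, had wild-type intensities of 941, 2085 and 2150.3 against 1106, 1792 and 1691 in mutant RNA, and the ranges of both receptors overlap between genotypes. Its log2 ratios were 0.06, 0.0081 and -0.32, a mean of -0.08 ± 0.21 with a 95% interval from -0.34 to 0.17 (limma adjusted p = 0.764). ninaD exceeded santa-maria on each array, by 0.33, 0.42 and 0.19 (exact sign-flip p = 0.25, the smallest that 3 arrays allow).

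ninaB, whose product makes the retinal, varied most between the arrays. Wild-type RNA gave 1249, 1747 and 1276, and mutant RNA gave 1649, 833 and 946. The mutant channel was brighter on array 1 and dimmer on arrays 2 and 3, with log2 ratios of 0.24, -0.81 and -0.41. The mean was -0.33 ± 0.53 with a 95% interval from -0.90 to 0.25, or 0.535-fold to 1.19-fold (limma adjusted p = 0.570). Only 2.15% of tested probes had a larger SD, with no matching for brightness. The duplicate spots shared their sign on every array, at 0.25 and 0.24 on array 1, -0.90 and -0.72 on array 2, and -0.27 and -0.55 on array 3. Without array 1 the mean was -0.61, and without array 2 it was -0.08. ninaB and Crys thus had their most extreme ratios on the same array, array 2, in opposite directions.

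pinta was the least variable of the 8. Its wild-type intensities, 330.3, 406 and 304, nearly equalled its mutant intensities, 336, 393 and 319. The log2 ratios were -0.0028, 0.16 and 0.04, a mean of 0.07 ± 0.08 (limma adjusted p = 0.684). The 95% interval, 0.938-fold to 1.17-fold, is narrow, but it describes a dim probe: the wild-type value was below the blank-spot percentile on arrays 1 and 3. Its sign turned when only the second of its duplicate spots was used (-0.04).

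ninaG was above 0 on all arrays but differed in size between them. Wild-type RNA gave intensities of 322, 473 and 284, and mutant RNA gave higher values on each array, 598, 483 and 354, although the ranges overlap across arrays. The wild-type values on arrays 1 and 3 were below the blank-spot percentile. The log2 ratios were 0.70, 0.24 and 0.21, a mean of 0.38 ± 0.28 or 1.30-fold (limma adjusted p = 0.254). The 95% interval for the single gene ran from 0.06 to 0.70. Without array 1 the mean was 0.22. Within an array ninaG exceeded ninaB by 0.46, 1.04 and 0.62 (exact sign-flip p = 0.25).

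ninaA, which serves opsin rather than chromophore, came second to Crys. Its wild-type intensities were 289, 1369 and 537 and its mutant intensities 501, 1609 and 697. The mutant channel was brighter on each array, although the ranges overlap across arrays, and the wild-type value on array 1 was below the blank-spot percentile. The log2 ratios were 0.62, 0.44 and 0.40, a mean of 0.49 ± 0.12 or 1.40-fold, with a 95% interval of 1.24-fold to 1.59-fold. It did not pass the threshold (limma adjusted p = 0.0960). Over 15 alternatives the mean lay between 0.42 and 0.59, and 1 of them put it past the threshold, the filter on blank spots (limma adjusted p = 0.0444). 2 of the 8 genes, Crys and ninaA, were under an adjusted p of 0.1, as were 2.12% of all tested probes.

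The main client of NinaA is the opsin of the outer photoreceptors, encoded by ninaE. Wild-type RNA gave ninaE intensities of 2282, 2452 and 3114, and mutant RNA gave 3594, 1938 and 3049, higher on array 1 and lower on the others. Its log2 ratios were 0.49, -0.11 and -0.00047, a mean of 0.13 ± 0.32 (limma adjusted p = 0.744). ninaA exceeded ninaE on each array, by 0.13, 0.56 and 0.40 (exact sign-flip p = 0.25). Among the opsins of the inner photoreceptors, Rh4 (0.81 ± 0.12) and Rh6 (0.58 ± 0.16) were above 0 on every array, Rh5 (-0.13 ± 0.08) was below 0 on every array, and Rh3 (0.17 ± 0.26) was mixed. None of these passed in limma, with adjusted p-values of 0.0625 for Rh4 and 0.0953 for Rh6.

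In order of mean ratio the genes ran Crys, ninaA, ninaG, retinin, ninaD, pinta, santa-maria and ninaB. The 95% intervals of neighbours in this order overlap, except those of Crys and ninaA. Array 1 gave 7 of the 8 genes a ratio above 0, array 2 gave 7 and array 3 gave 4. The medians of the 8 were 0.45, 0.28 and -0.04 on arrays 1, 2 and 3, where the medians of all tested probes were -0.0019, -0.0068 and -0.00032. Of the 8 genes, 7 had an SD above the median SD of all tested probes, 0.12. Many of those probes are dim. On arrays 1 and 3 only 31.7% to 44.6% of all probes in a channel lay above the blank-spot percentile. The SDs were not compared with those of probes of like brightness.

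**Figure D3:**
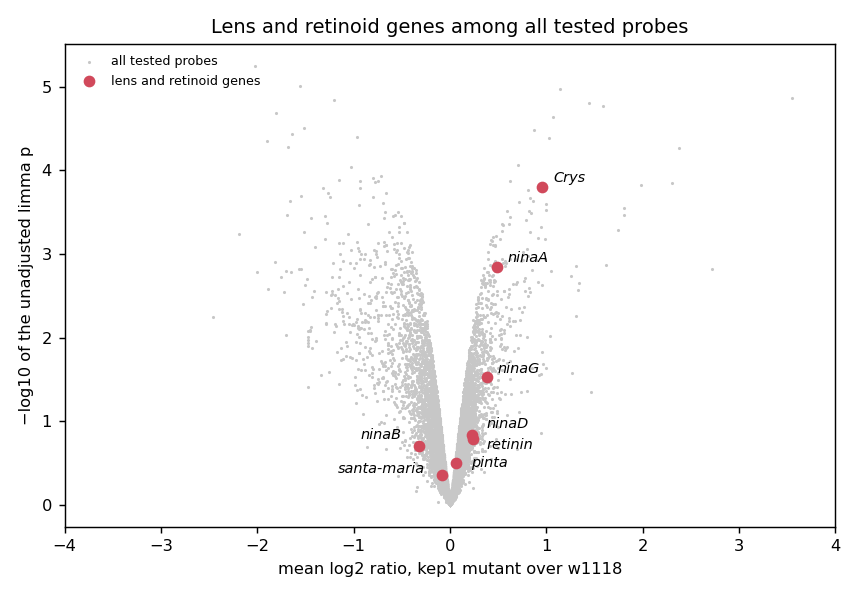
Mean log2 ratio (horizontal axis) against −log10 of the unadjusted limma p (vertical axis) for 11733 tested probes in grey and the 8 genes in red. Crys lies among the few probes in the upper right, ninaA below it, and 5 genes lie near the base with ratios between -0.33 and 0.23.

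The duplicate spots of the 8 genes were not evenly ordered. The first spot had the higher log2 ratio in 19 of 24 comparisons, with 7 of 8 genes on array 1, 5 on array 2 and 7 on array 3. Over all tested probes the first spot was higher for 48.8%, 50.3% and 50.6%. With the first spots alone, 6 of the 8 genes were above 0 on all arrays, and with the second spots alone 3 were, against 17.3% of all tested probes for either. The genes that joined with the first spots were retinin, ninaD and pinta, at 0.33, 0.27 and 0.17 (limma adjusted p-values of 0.306, 0.233 and 0.372). With the second spots their means were 0.14, 0.19 and -0.04, so of these 3 means that of pinta changed sign. The spots of santa-maria differed in sign on arrays 1 and 2, at 0.18 and -0.05 and at 0.04 and -0.03. With its second spot at -0.37 on array 3, santa-maria was the 1 gene below 0 on all arrays with the second spots alone. With the first spots alone 0 were. Every spot of Crys, ninaA and ninaG was above 0.

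Related genes were examined as lists: other opsin, retinoid and lens genes, regulators of lens and retina cells, and relatives in the same protein families. Of 87 listed genes 69 were measured, most of them family relatives, and 0 passed the threshold in limma. By unadjusted p under 0.05, 6 were higher and 6 lower, while 12 were above and 11 below 0 on all arrays. Of all tested probes, 6.24% were higher and 9.25% lower by unadjusted p. Shares of 18.4% and 20.5% were above and below 0 on all arrays. Counts of the lists and tissue markers below stand against the same shares. The median was 0.02.

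Of 10 measured genes of opsin maturation and retinoid recycling, 2 (Pdh and Cnx99A) were higher and 0 lower by unadjusted p, 5 were above and 1 was below 0 on all arrays, and the median was 0.08. Pdh, a retinol dehydrogenase of the pigment cells that acts in recycling the chromophore, had log2 ratios of 0.48, 0.33 and 0.39, a mean of 0.40 ± 0.08 or 1.32-fold (limma adjusted p = 0.0960). Its wild-type intensities were 6339, 7915 and 7241 and its mutant intensities 9979, 8604 and 9228, so all mutant values exceeded all wild-type values. rdhB, which acts in the same pathway, stood at 0.17 ± 0.26. The calnexin gene Cnx99A, needed for opsin folding, had a brighter probe at 0.44 ± 0.29 and a dimmer one at 0.0052. Xport-A, a chaperone of opsin and the Trp channel, stood at 0.38 ± 0.36. The transport genes Rab1 (-0.05 ± 0.19), Rab6 (-0.10 ± 0.08) and Rab11 (0.04 ± 0.13), the mannosidase gene alpha-Man-IIb (0.03 ± 0.02) and the fatty acid transport gene Fatp1 (-0.17 ± 0.21) did not pass either. Rab6 and alpha-Man-IIb were below the blank-spot percentile in both channels of arrays 1 and 3.

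Of 2 further cuticle proteins of the lens, Cpr72Ec had wild-type intensities of 419.5, 2751 and 1209 against 759, 3465 and 1387 in mutant RNA. Its log2 ratios were 0.82, 0.53 and 0.24, a mean of 0.53 ± 0.29 (limma adjusted p = 0.169). Like Crys it was brighter in the mutant channel on every array. Cpr66D stood at -0.01 ± 0.03, but its intensity was below the blank-spot percentile in both channels of arrays 1 and 3.

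Among 10 measured regulators of lens and retina cells, 1 was higher and 0 lower by unadjusted p, and the median was 0.04. This gene was the Pax6 homologue toy, whose probes stood at 0.21 ± 0.04 and 0.23 (limma adjusted p = 0.182 for the brighter). The genes sv (0.09 ± 0.04), also known as Pax2, and pros (0.16 ± 0.22), both active in the cone cells that secrete the lens, did not differ from 0 beyond the threshold, and sv had an intensity of 0 in the wild-type channel of array 2. The other probe of pros stood at -0.11 ± 0.06, opposite in sign. ct, a further cone cell gene, stood at -0.12 ± 0.02 on its brighter probe and at -0.0060 ± 0.07 on the other. The eye genes gl (0.08 ± 0.15), so (0.04 ± 0.13), eya (-0.08 ± 0.13), ey (0.04 ± 0.08), Pph13 (0.01 ± 0.06) and oc (-0.02 ± 0.09) were within 0.1 of 0. Several of these probes were dim, however. Intensities of sv, ey and Pph13 were below the blank-spot percentile in both channels of every array. The same held for oc on arrays 2 and 3 and for the brighter ct probe on arrays 1 and 3.

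The 4 protein families examined, those of ninaD and santa-maria, ninaG, ninaA and pinta, had medians close to 0. In the CD36 family of ninaD and santa-maria, 7 measured relatives had a median of -0.0074, from emp at -0.19 ± 0.28 to CG10345 at 0.06 ± 0.56, with 0 past an unadjusted p of 0.05 in limma. In the GMC oxidoreductase family of ninaG, 10 relatives had a median of 0.0085, from fiz at -0.93 ± 0.27 (limma adjusted p = 0.0928) to CG9517 at 0.09 ± 0.12. In the cyclophilin family of ninaA, 13 relatives had a median of -0.02, from CG7768 at -0.83 ± 0.25 (limma adjusted p = 0.0953) to cyp33 at 0.05 ± 0.25. In the CRAL-TRIO family of pinta, 17 relatives had a median of 0.03, from CG1902 at -0.69 ± 0.48, or -0.54 on its other probe, to CG5958 at 0.31 ± 0.33. None of these 4 families had a relative past the threshold. By unadjusted p the last 3 families held 0, 0 and 2 higher genes and 3, 1 and 2 lower genes. In each of these 3 families some relatives lay below the blank-spot percentile in both channels of every array, and the medians include them.

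**Figure D4:**
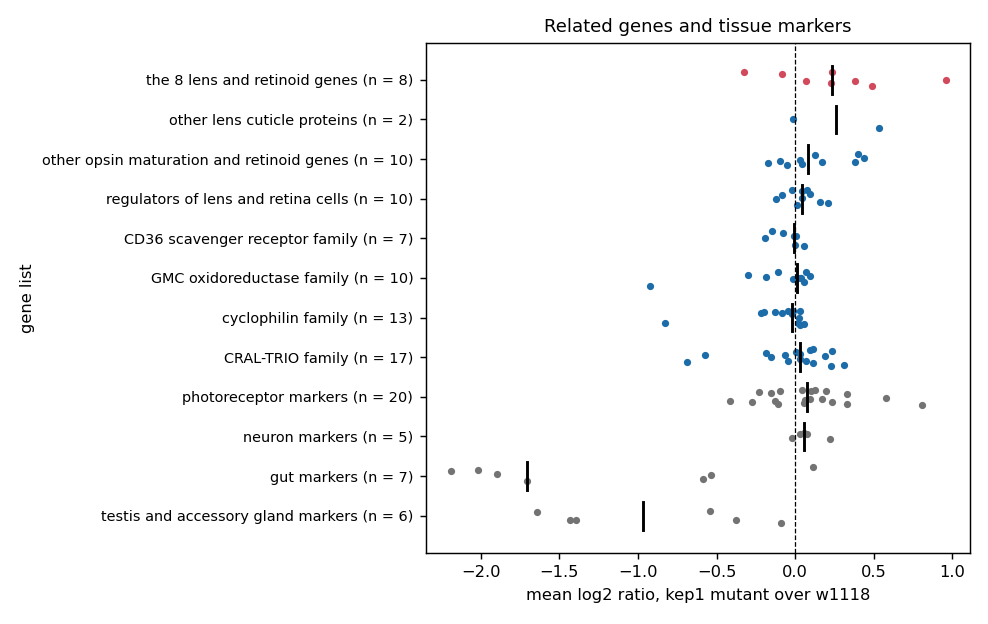
Mean log2 ratio of each measured gene, 1 point a gene on its brightest probe, for the 8 genes (red), related lists (blue) and tissue markers (grey), with a black line at each median. The related lists centre between -0.02 and 0.26, and the gut and testis markers at -1.71 and -0.97. The head fat body markers, whose means had a median of 1.47, are not drawn.

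Tissue markers moved with the arrays as well. Of 20 measured photoreceptor markers 0 passed in limma and 2 were higher and 1 lower by unadjusted p, with medians of 0.32, -0.31 and 0.12 on arrays 1, 2 and 3. A summed intensity follows the brightest probes of its list and only sets the channels of an array side by side. On arrays 1, 2 and 3 the photoreceptor sums were 58788, 105970 and 71444 in wild type, with none at 0. Those in the mutant were 79020, 78973 and 75454, higher on arrays 1 and 3 and lower on array 2. Of 5 neuron markers 0 passed in limma and 1 was higher by unadjusted p, with medians of 0.09, -0.16 and 0.31 and sums of 5410 to 9740 in wild type and 6874 to 8110 in the mutant. Of 7 gut markers, 2 fell and 6 were below 0 on all arrays, with medians of -1.87, -0.65 and -2.14 and summed intensities of 15568 to 29826 against 6871 to 11606 and 1 channel value at 0. Of 6 testis and accessory gland markers, 1 fell and 5 were below 0 on all arrays, with sums of 6559 to 19465 and 3144 to 9496. The sums of both lists were higher in the wild-type than in the mutant channel on each array, in RNA described as that of heads. Of 5 head fat body markers 0 passed in limma, 3 were higher and 1 lower by unadjusted p, and 4 were above 0 on all arrays. Their medians were 0.31, 1.09 and 1.17 on arrays 1, 2 and 3, and the median of their means was 1.47. Their summed intensities were 1508, 6364 and 3987 in wild-type RNA and 7952, 8331 and 5475 in mutant RNA, higher in the mutant on each array. On arrays 2 and 3 this rested on Lsp2, at 757 and 465 in wild-type RNA and 3025 and 2046 in mutant RNA. The marker below 0 on all arrays was Cyp4d21. On arrays 2 and 3 its brighter probe gave 4531 and 2701 in wild-type RNA and 1846 and 1126 in mutant RNA. The dimmer probe of Cyp4d21 had a mean log2 ratio of -0.03 ± 0.04, where the brighter stood at -0.81 ± 0.63. The part of these tissue differences in the ratios of the 8 genes was not tested.

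By pattern, the genes most like Crys over the 3 arrays were those of the odorant-binding proteins Obp99b and Obp56d and the cytochrome P450 Cyp4e3, with root mean square differences of 0.11, 0.12 and 0.14 on the log2 ratio scale. Their means were 0.94 ± 0.22, 0.89 ± 0.27 and 0.84 ± 0.17, and the Obp99b value is that of its dimmer probe, where the brighter stood at 1.62 ± 0.55. Those most like retinin were Eglp4, wapl and CG6674, with differences of 0.03, 0.08 and 0.08 and means of 0.24 ± 0.30, 0.27 ± 0.37 and 0.17 ± 0.28. Obp99b is also among the head fat body markers. The likeness rests on 3 arrays and is a description only.

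**Figure D5:**
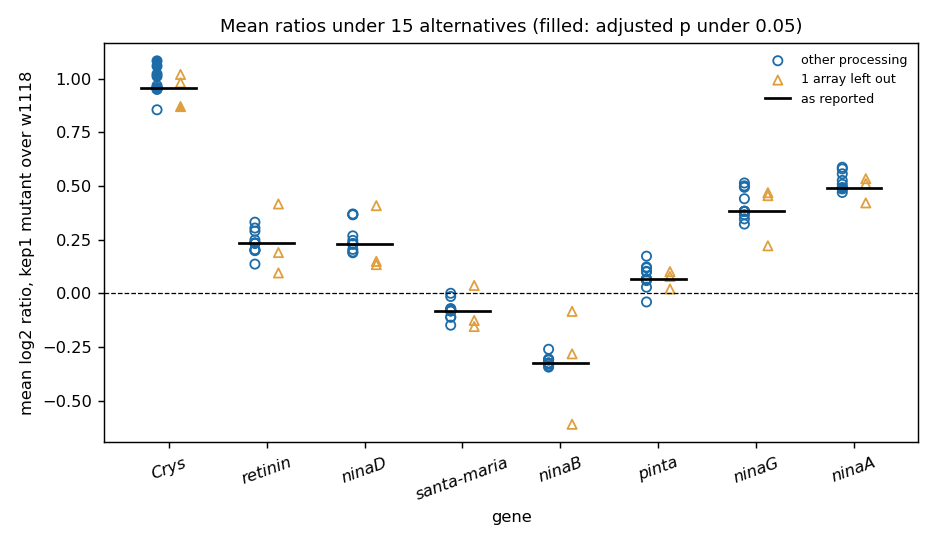
Mean log2 ratio of each of the 8 genes under 15 alternatives, with circles for other processing and triangles for 1 array left out, filled where the adjusted p was under 0.05, and a black line for the reported value. Crys stays between 0.86 and 1.08 with 9 filled symbols, ninaA has 1, and santa-maria and pinta have symbols on both sides of 0.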

How the data were processed

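Labels and scanner tables of 3 spotted 2-colour cDNA arrays were used, with 27648 spots each. Per the file headers, the deposited scanner tables give foreground and local background intensity per spot and channel, not normalized. The deposited log2 table equalled log2 of channel 2 over channel 1 foreground, uncentred. The image software is not given in the sources used here. Arrays are numbered in record order. The titles number array 2 as 3. 3 columns of subtracted intensities and ratios that the submitters added were not used.

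Background was corrected by normexp (offset 50) and ratios by loess within each array, to which only gene probes contributed weight. R 4.3.3 with limma 3.58.1 was used. Duplicate spots were averaged. Probes above local background by 2 background SDs in 1 channel on at least 2 arrays were tested in limma (mean ratio against 0, two-sided, Benjamini-Hochberg over all probes). The design text calls the 3 RNA samples independent but does not say how the flies were reared, so the p-values cover the spread of these 3 samples, part of which may be technical. The number of arrays limits the precision. Genes were named through RefSeq's gene table (assembly Release 6 plus ISO1 MT) (10442 of 11744 probes), used for names and gene order only. A list gene stands for its brightest probe. The scripts were tested on simulated data.

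The members and lists were chosen with earlier results of these data known. Named genes were the 8 members, kep1, the first 3 related lists, the opsins, the extremes of each family, the 3 genes most like Crys and retinin, and their nearest measured neighbours. The head fat body markers Lsp2 and Cyp4d21 were named after their values were seen. 16 alternatives were tried.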

Additional observations from a re-analysis of the deposited data

How the results depend on the processing

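All 8 genes were tested under each alternative. Over all probes the count past the threshold was 17, and it was 434 without background subtraction, 390 with plain subtraction, 70 with median centring only, 0 with scale normalization between arrays (1829 at an unadjusted p under 0.05 in limma), 423 with the deposited log2 values, 35 with both channels above background, 367 with the filter on blank spots, 292 with an intensity trend, 48 and 40 with the first or second spots only and 249 at a threshold of 0.1. Among the 8 genes the count of 0 became 1 without background subtraction, with plain subtraction, median centring, the deposited values, both channels above background, the intensity trend and the first spots, and 2 with the filter on blank spots and at a threshold of 0.1. Among related genes 0 became 2, 2, 1, 3, 2, 2 and 3 without background subtraction, with plain subtraction, median centring, the deposited values, the filter on blank spots, the intensity trend and the threshold of 0.1. Leaving out 1 array gave 0 to 100 probes, 0 to 1 of the 8 genes and 0 to 1 related genes, and the highest counts came without array 2. The sign of santa-maria turned with the deposited values (0.00015) and on leaving out 1 array, where it ran from -0.15 to 0.037 (without array 3), and that of pinta with the second spots (-0.040). For these changes the cause was not tested. The other 6 genes kept their sign. Dim probes limit what can be seen, as 10 of 48 channel values of the 8 genes lay within the range of blank spots. The fit is paired by array, since each array sets 1 mutant RNA against 1 wild-type RNA, and the labels give no further pairing to use as a block.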
